A study of Mus musculus with 6 samples.

Results

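Klf2 and 8 genes of lymph node egress and lymphoid homing were followed in mouse CD8 T cells activated in the presence of basophil supernatant. Basophils are a rare kind of granulocyte, and IL-3 is a cytokine that activates them. The 9 members, of 46517 gene identifiers in the count tables, were Klf2, the sphingosine-1-phosphate (S1P) receptor genes S1pr1, S1pr4 and S1pr5, Gpr183, Selplg, and the KLF factor genes Klf6, Klf10 and Klf13. They were chosen by name with their fold changes in the contrast of IL-3 against PBS supernatant already known. Their values in it are therefore a description, and no p-value is given for a member. Spleens and lymph nodes of C57BL/6J mice gave the naive T cells, which were kept for 3 days on plates coated with antibody to CD3 at 5 µg/mL, with antibody to CD28 at 0.5 µg/mL and IL-2 at 100 units/mL. From day 1 to day 2 supernatant was added. It came from sorted basophils after 2 days of culture with IL-2 at 100 units/mL and either IL-3 at 3 ng/mL (IL-3 supernatant, 3 libraries) or PBS (PBS supernatant, 3 libraries). Both groups were thus activated cells given basophil supernatant, and IL-3 left in the supernatant cannot be told apart from what the basophils released. Cells not activated, or given IL-3 without basophils, were not analysed here. The sources used here do not give the age, sex or number of mice or say whether replicates were separate cultures. The p-values therefore rest on a spread between libraries that may be technical.

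KLF2 is a zinc finger transcription factor that naive T cells keep high under the control of FOXO1, and that is switched off by activation through the T cell receptor. It is known for maintaining S1PR1, the receptor with which T cells sense S1P in lymph and blood and leave lymph nodes. CD69 binds S1PR1 and removes it from the surface. S1PR4 and S1PR5 are further S1P receptors, GPR183 is a receptor for oxysterols that positions lymphocytes in lymphoid tissue, and Selplg encodes PSGL-1, a ligand of selectins.

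Summed expected counts ranged from 17377052 to 22174902 per library. Cd8a and Cd8b1 together stood at 1083 to 1182 CPM (counts scaled to library size) with PBS supernatant and at 570.0 to 623.8 CPM with IL-3 supernatant. The 5 general T cell markers summed to 1080 to 1127 CPM with PBS supernatant and 768 to 835 CPM with IL-3 supernatant, and all 5 were called lower. The 2 CD4 T cell markers summed to 5.64 to 8.68 CPM and 17.4 to 19.4 CPM. Zbtb7b (log2 1.498, called higher) made up nearly all of that sum, and Cd4 itself stayed at or below 0.831 CPM in every library. Of 7 basophil markers 4 (Mcpt8, Fcer1a, Ms4a2 and Prss34) had no count in any library, and the list summed to at most 0.0901 CPM. The list of 6 B cell markers, cells that also use Klf2, S1pr1 and Gpr183, summed to 3.06 to 4.10 CPM with PBS supernatant and 7.10 to 8.96 CPM with IL-3 supernatant. Ebf1 carried the difference. Among 4 endothelial markers, another cell type known for KLF2 and S1PR1, Cdh5 and Kdr had no count, and Pecam1, which T cells also express, made up nearly all of 24.4 to 27.9 and 4.33 to 5.67 CPM. The part of other cell types in the values below was not tested. The first 2 principal components of all tested genes held 63.0% and 14.7% of the variance. PBS supernatant replicate 2 differed most from its group. The chi-square of counts over degrees of freedom was 64.9 against replicate 1 and 61.1 against replicate 3. Between replicates 1 and 3 it was 13.6.

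Across all genes, edgeR's quasi-likelihood test called 3835 of 12407 tested genes (30.9%) at an adjusted p below 0.05, 14.8% higher and 16.1% lower with IL-3 supernatant. Of the 9 members 8 could be tested. Klf2, S1pr4 and Selplg were called lower, S1pr1 was called higher, and Gpr183, Klf6, Klf10 and Klf13 were not called. The call of S1pr1 was kept in only 9 of 19 other settings, and those in which it was lost are given with its values. The 3 libraries of one group lay apart from those of the other in 6 of the 8 tested members, 5 lower and 1 higher, where this held for 43.6% of all tested genes (22.6% lower and 21.0% higher). The median log2 fold change of the 8 was -0.20, beside -0.0047 over all tested genes. Since this contrast was in view when the members were listed, nothing is read from these counts.

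**Figure D1:**
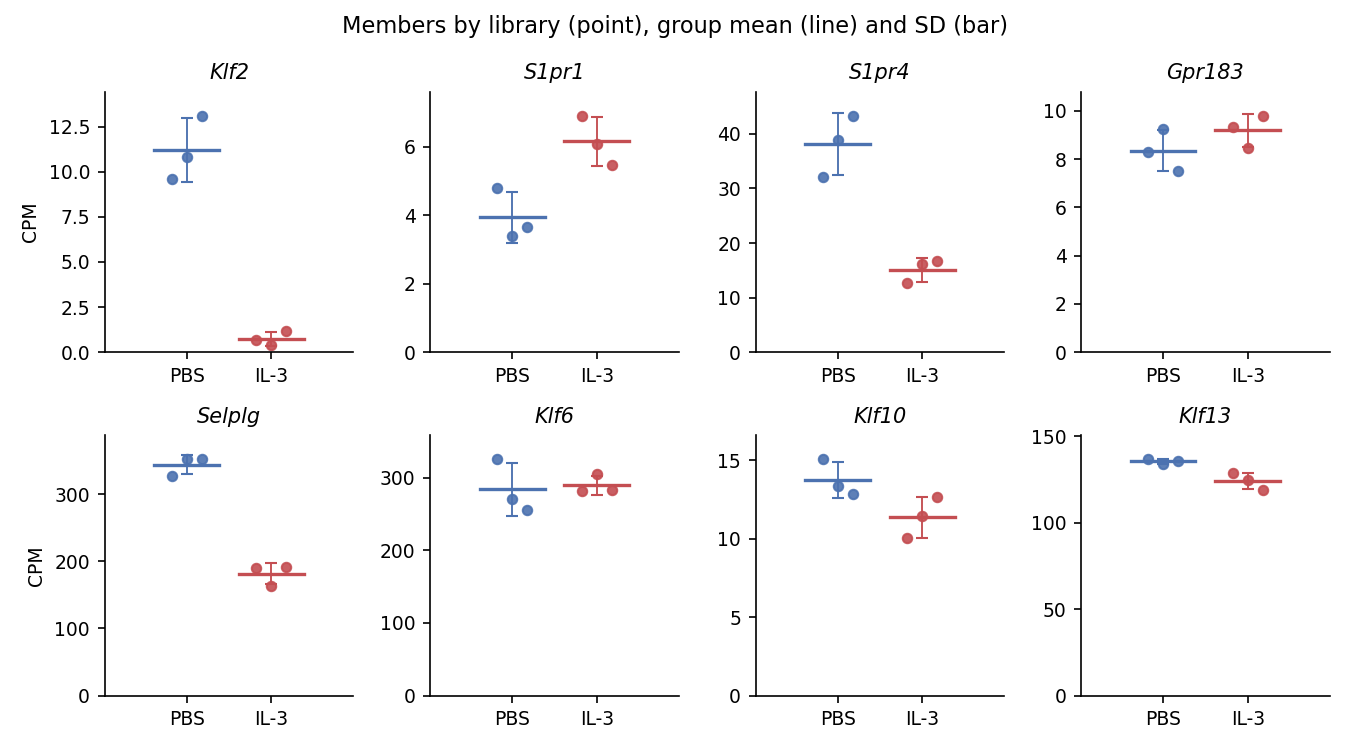
CPM of the 8 tested members in each library (points), with the group mean (line) and SD (bar) over 3 libraries; every vertical axis starts at 0 and has its own scale. Klf2 lies between 9.63 and 13.1 CPM with PBS supernatant and between 0.405 and 1.17 CPM with IL-3 supernatant, S1pr4 and Selplg are also lower, S1pr1 is higher, and the groups overlap for Gpr183 and Klf6.

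Klf2 (ENSMUSG00000055148, chromosome 8, 72319033 to 72321656, plus strand, GRCm38) had the log2 fold change farthest from 0 of the 8 members that could be tested. It stood at 9.63, 10.8 and 13.1 CPM in PBS supernatant replicates 1, 2 and 3 and at 0.669, 0.405 and 1.17 CPM in IL-3 supernatant replicates 1, 2 and 3. The highest IL-3 supernatant library, replicate 3, remained far below the lowest PBS supernatant library. These levels rest on 173, 195 and 230 counts and on 13, 9 and 23 counts. The coefficient of variation was 52.1% in the IL-3 supernatant group and 15.9% in the PBS supernatant group. What made up this spread was not tested. The means were 11.2 ± 1.77 and 0.750 ± 0.391 CPM (SD, n = 3 each), which is 15.0-fold lower (log2 fold change -3.91, SE 0.28). Klf2 was the 22nd lowest of the 12407 fold changes. With bulk RNA, fewer cells carrying Klf2 transcript and less transcript per cell cannot be told apart. With each library left out in turn, the log2 fold change stayed between -4.38 and -3.58, the first without IL-3 supernatant replicate 3.

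The sequence before the start of Klf2 is shown because its log2 fold change was the farthest from 0, beside that of S1pr4, the other member called lower with an entry in the table of RefSeq promoter windows (GRCm38.p6, 5′ to 3′). Windows were found for Klf2, S1pr4, S1pr5, Gpr183, Klf6 and Klf13, 6 of the 9 members. The Klf2 stretch is chr8:72318812-72319032 on the plus strand and the S1pr4 stretch chr10:81500138-81500387 on the minus strand. Capitals mark matches to CTA and TAG with 4 bases of any kind between them, a looser form than the site that MEF2 factors bind. They also mark matches to CACCC or its complement GGGTG, a box bound by KLF factors.
Klf2: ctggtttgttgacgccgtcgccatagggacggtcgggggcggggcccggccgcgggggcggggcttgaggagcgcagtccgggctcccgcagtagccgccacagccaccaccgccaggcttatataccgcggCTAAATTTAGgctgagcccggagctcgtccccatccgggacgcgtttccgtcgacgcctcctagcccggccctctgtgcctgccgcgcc
S1pr4: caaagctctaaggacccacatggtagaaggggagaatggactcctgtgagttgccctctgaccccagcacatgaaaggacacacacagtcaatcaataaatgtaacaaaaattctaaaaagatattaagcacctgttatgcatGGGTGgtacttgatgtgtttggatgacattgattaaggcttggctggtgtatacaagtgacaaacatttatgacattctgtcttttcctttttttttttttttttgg
The Klf2 match, CTAAATTTAG, begins 118 bases before the RefSeq start. A match to that form on either strand was present in 3.20% of 32817 windows of the 250 bases before a RefSeq start, and among the 6 members only in that of Klf2. The FOXO core TGTTTAC was in 3.16% of all windows and in none of the 6, and neither was the STAT form of TTC and GAA with 3 or 4 bases between them (7.01% and 5.85% of all windows). The CACCC box, in 52.0% of all windows, was found once in those of Klf2, S1pr4 and Klf13, at 2 places in that of S1pr5 and not in those of Gpr183 and Klf6. The GC box GGGCGG, which SP and KLF factors bind, was in 32.7% of all windows and in those of Klf2 (2 matches, in lower case above), S1pr5, Klf6 and Klf13. The Klf2 match to CACCC falls after the printed stretch, between the GENCODE and the RefSeq start. The windows differed in base composition, with 71.2% G and C for Klf2, 38.8% for S1pr4 and 32.0% for Gpr183. These matches describe the letters, and no binding was measured.

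The S1P receptor members differed in opposite directions. S1pr4 (ENSMUSG00000044199, chromosome 10, 81497747 to 81500132), a receptor largely of lymphoid cells, stood at 32.1, 39.0 and 43.3 CPM in PBS supernatant replicates 1 to 3 and at 12.6, 16.2 and 16.6 CPM in IL-3 supernatant replicates 1 to 3. Every IL-3 supernatant library was below every PBS supernatant library, and the log2 fold change was -1.33 (SE 0.13), 2.51-fold lower. S1pr1 (ENSMUSG00000045092, chromosome 3, 115710433 to 115715072), the main egress receptor, went the other way, with 4.79, 3.38 and 3.65 CPM against 6.90, 6.08 and 5.46 CPM. The groups did not overlap, but the gap between PBS supernatant replicate 1 and IL-3 supernatant replicate 3 was smaller than the spread within either group. The log2 fold change of S1pr1 was 0.64 (SE 0.20), 1.56-fold higher, on 61 to 86 counts per PBS supernatant library and 107 to 135 per IL-3 supernatant library. S1pr1 lost its call by DESeq2 (log2 0.65), on TPM (0.42 to 0.53), at a stricter threshold, and without IL-3 supernatant replicate 1 (0.55), PBS supernatant replicate 2 (0.55) or PBS supernatant replicate 3 (0.59), while staying above 0 throughout. S1pr5 (ENSMUSG00000045087, chromosome 9, 21242912 to 21248443), which guides the exit of NK cells and some effector T cells, had 1 count, in PBS supernatant replicate 2, and none elsewhere. It was thus at or below the limit of 3 counts over each group (0.0555 CPM with PBS and 0.0493 CPM with IL-3 supernatant), which covers counting error only, and no fold is given.

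The transcript levels per length, in TPM, put S1pr4 first among the 5 S1P receptor genes in all 6 libraries, at 30.7 ± 4.42 TPM with PBS supernatant and 12.4 ± 1.86 TPM with IL-3 supernatant (SD, n = 3 each). S1pr2, which opposes migration, followed at 5.13 ± 0.392 and 6.24 ± 0.417 TPM. S1pr1 came next at 2.50 ± 0.546 and 3.95 ± 0.440 TPM, and S1pr3 was last of those detected in both groups, at 0.144 ± 0.0981 and 0.807 ± 0.123 TPM. The TPM of S1pr4 was 8.56, 14.7 and 15.1 times that of S1pr1 in PBS supernatant replicates 1 to 3 and 2.33, 3.39 and 3.89 times in IL-3 supernatant replicates 1 to 3. S1pr1 accordingly made up 6.61 ± 2.05% of the summed receptor TPM in the first group and 16.95 ± 2.71% in the second, while the sum itself was 38.5 ± 4.35 and 23.4 ± 1.21 TPM.

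**Figure D2:**
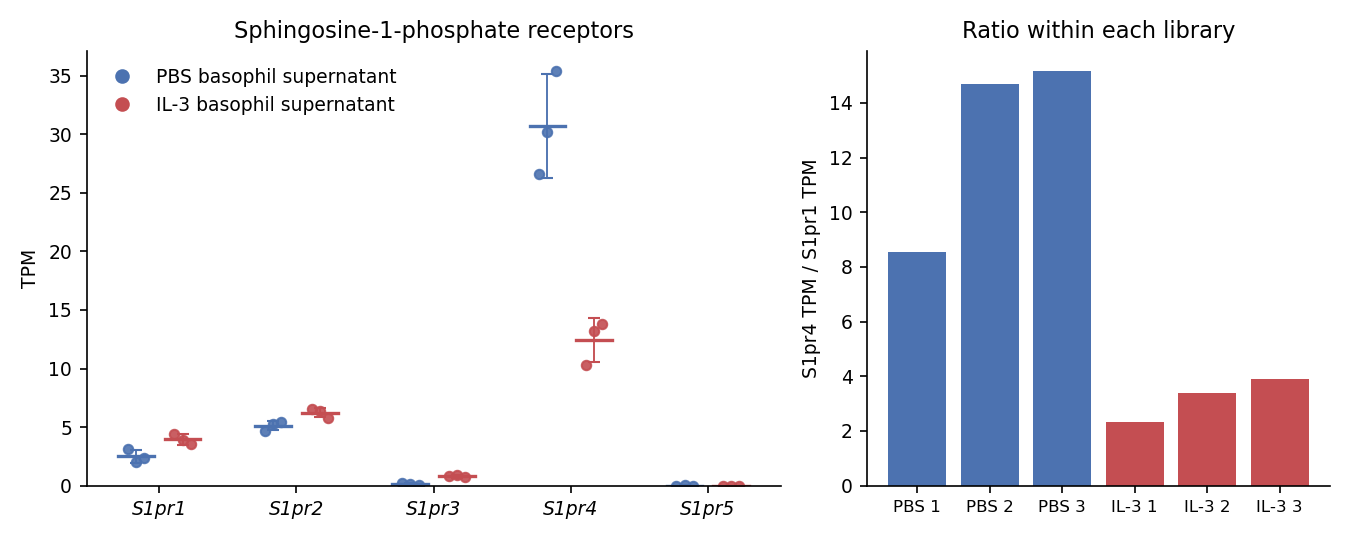
Left, TPM of the 5 S1P receptor genes in each library (points) with group mean (line) and SD (bar, n = 3); right, TPM of S1pr4 divided by that of S1pr1 within each library, bars from 0. S1pr4 leads in both groups but is lower with IL-3 supernatant, S1pr1 is higher, and the ratio is between 8.56 and 15.1 with PBS and between 2.33 and 3.89 with IL-3 supernatant.

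Selplg (ENSMUSG00000048163, chromosome 5, 113818536 to 113832644) had the highest level of the members in TPM in both groups, while in CPM Klf6 was higher with IL-3 supernatant. PSGL-1, its product, lets T cells roll on selectins and also restrains activated T cells. It stood at 327, 352.0 and 352.0 CPM in PBS supernatant replicates 1 to 3 and at 189.5, 163 and 192 CPM in IL-3 supernatant replicates 1 to 3. The groups were far apart and each was tight, with coefficients of variation of 4.18% and 8.71%. The log2 fold change was -0.92 (SE 0.06), 1.89-fold lower. In PBS supernatant replicate 2, the one library with TPM per isoform, transcript Selplg-201 made up 93.1% of the gene's TPM.

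Gpr183 (ENSMUSG00000051212, chromosome 14, 121952551 to 121965195) did not separate the groups. It stood at 8.29, 9.25 and 7.53 CPM with PBS supernatant and at 9.32, 8.47 and 9.80 CPM with IL-3 supernatant. PBS supernatant replicate 2 lay above IL-3 supernatant replicate 2, and the log2 fold change was 0.14 (SE 0.14). The gene overlaps Ubac2 on the opposite strand, and the sources used here do not say how strand was treated in counting. Ubac2 was at 54.8 ± 3.85 and 54.2 ± 1.93 CPM (SD, n = 3 each). Only the spans of the genes were compared, not their exons, and whether reads of the pair were mixed was not tested.

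The other KLF members differed little. Klf6 (ENSMUSG00000000078, chromosome 13, 5861482 to 5870394), an early response factor, stood at 325, 271 and 256 CPM against 281, 304 and 283 CPM, at log2 0.03 (SE 0.08). PBS supernatant replicate 1 lay above all IL-3 supernatant libraries and replicates 2 and 3 below them. Klf10 (ENSMUSG00000037465, chromosome 15, 38291463 to 38300706), a factor induced by TGF-beta, stood at 15.1, 13.4 and 12.9 CPM against 10.0, 11.4 and 12.7 CPM, at log2 -0.28 (SE 0.13). Its groups met almost at one value, 12.9 against 12.7 CPM. Klf13 (ENSMUSG00000052040, chromosome 7, 63886351 to 63938915), known as a late regulator of Ccl5 in T cells, stood at 137, 134 and 136 CPM against 128.5, 125 and 119 CPM, at log2 -0.13 (SE 0.06). Its values were the closest together of all members, with coefficients of variation of 1.12% and 3.75%, and the groups were apart by a small amount.

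**Figure D3:**
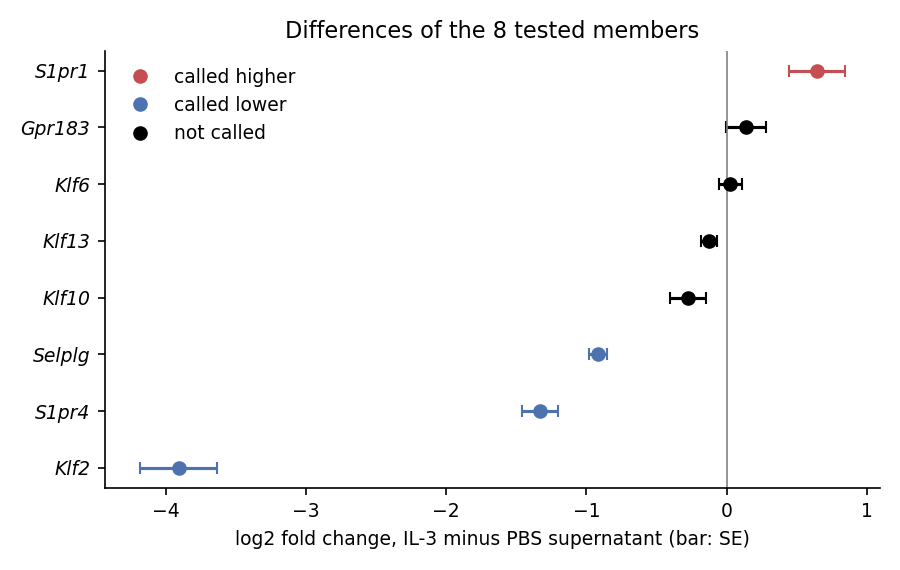
Log2 fold change (IL-3 minus PBS supernatant, bars SE) of the 8 tested members, coloured by the call across all genes. Klf2 stands at -3.91, S1pr4 at -1.33 and Selplg at -0.92, S1pr1 at 0.64, and the other 4 lie between -0.28 and 0.14.

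Per length, the members kept nearly the same order in both groups apart from Klf2. With PBS supernatant the order in TPM was Selplg (378), Klf6 (129.9), Klf13 (41.5), S1pr4 (30.7), Klf2 (11.7), Klf10 (8.72), Gpr183 (5.46) and S1pr1 (2.50), and no neighbours in it overlapped between libraries. With IL-3 supernatant Klf2 came after S1pr1, at 0.797 TPM against 3.95 TPM. There Klf10 (6.43 to 8.22 TPM) and Gpr183 (5.61 to 6.58 TPM) overlapped, while the other neighbours did not.

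Among the 17 KLF genes in the tables, of which 11 could be tested, Klf2 had the lowest log2 fold change. Its mean level was the 4th highest with PBS supernatant, at 11.7 ± 1.91 TPM, overlapping Klf7 and Klf9 at 11.4 ± 0.927 and 10.1 ± 1.39 TPM (SD, n = 3 each). With IL-3 supernatant it was the 11th, and its share of the summed KLF TPM went from 4.37% to 0.308%. The sum was 269.5 ± 28.2 and 260.4 ± 6.75 TPM, with Klf6 alone at 48.1% and 51.6% of it. Of the 13 family genes outside the members 7 could be tested, and 1 rose and 1 fell. Klf3, which shares targets with KLF2 in lymphocytes, fell from 13.8 ± 0.117 CPM to 6.09 ± 1.17 (log2 -1.18, SE 0.15, edgeR adjusted p = 1.1e-05), and Klf7 rose by log2 0.41 (SE 0.09). Klf4, a factor of quiescence in CD8 T cells, had mean levels of 6.27 ± 1.88 and 5.49 ± 1.25 CPM, and its test did not pass (edgeR adjusted p = 0.59).

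**Figure D4:**
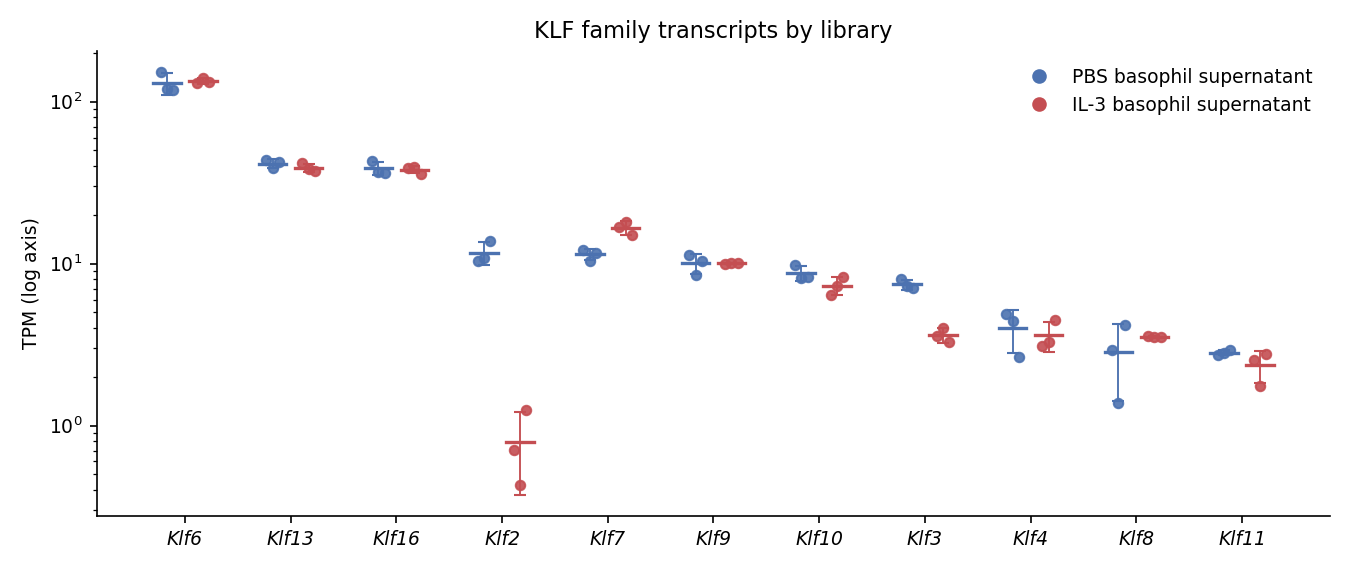
TPM (log axis) of the 11 KLF genes with a mean of at least 0.5 TPM in both groups, ordered by the PBS supernatant mean; points are libraries, lines group means and bars SD (n = 3). Klf2 drops from the 4th place to the last of those shown, Klf3 is lower and Klf7 higher with IL-3 supernatant, and Klf6, Klf13 and Klf16 lead in both groups.

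Itih5, Ms4a4b, Fgl2 and Mndal were among the genes whose pattern over the 6 libraries was most like that of Klf2. Likeness was the root-mean-square difference between log2 CPM centred on each gene's mean, over the 9730 genes whose log2 CPM averaged at least 2. It was 0.287 for Itih5, which encodes a protein that binds hyaluronan in the matrix, 0.386 for Ms4a4b, a membrane protein of T cells, 0.432 for Fgl2 and 0.439 for Mndal, a member of the Ifi200 family whose similar genes make the division of reads uncertain. Their log2 fold changes were -3.73, -3.52, -3.81 and -3.44. The measure is dominated by the difference between the groups, which all 4 share with Klf2.

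Lists of other genes of the pathway were read in the same fit, with p adjusted over all tested genes. Together they held 142 genes, of which 123 could be tested, and 21 rose and 51 fell (58.5% called, where 30.9% of all genes were). Their median log2 fold change was -0.16. Cd69, Rgs1, Foxp1 and Tsc1 stand in 2 lists each, and the lists were drawn up with earlier results of these data known. On TPM of 5 libraries without a filter on low values, Klf7, Mef2d, Mapk7, Mtor, S1pr3, Sgpp1, Ccr7, Itgb1, Gpr132 and Ski did not pass, and Mapk7 and Ski did not pass with the filter either. Against a fold of 1.2, Klf7, Sgpp1, Foxo3, Mapk7, Mtor, Itgb1, Gpr132, Gpr15 and Ski did not pass.

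Of 23 tested regulators of Klf2, 3 rose and 11 fell, with a median log2 fold change of -0.08. Foxo1, the activator of Klf2 in naive T cells, was at 106 ± 1.32 and 106 ± 7.05 CPM (SD, n = 3 each; log2 0.01, SE 0.06) and did not pass (edgeR adjusted p = 0.96). Pik3cd, a catalytic subunit of PI3K in lymphocytes, fell by 0.68 on the log2 scale (edgeR adjusted p = 3.2e-08). Mef2d, a MEF2 factor, fell by 0.50 and Elf4, a factor that acts on Klf2 in CD8 T cells, by 0.45. The 3 that rose, named after their values were seen, were Foxo3 (log2 0.31), Mapk7, which encodes the kinase ERK5 upstream of MEF2 (0.33), and Mtor (0.22). Mapk7 did not pass without IL-3 supernatant replicate 2 (log2 0.31) and Mtor not without IL-3 supernatant replicate 1 (0.20).

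Of 12 tested genes for the other S1P receptors and S1P metabolism, 2 rose and 1 fell (25.0% called), and the median log2 fold change was 0.07. S1pr3 rose from 0.334 ± 0.221 to 1.85 ± 0.292 CPM (SD, n = 3 each; log2 2.44, SE 0.50, edgeR adjusted p = 0.0012) and Sphk1, one of the kinases that make S1P, from 0.523 ± 0.265 to 1.71 ± 0.163 CPM (log2 1.69, SE 0.46), both at low levels. Sphk1 lost its call in 3 of the 4 fits on TPM. Sgpp1, an S1P phosphatase, fell by 0.39 on the log2 scale. S1pr2 did not pass (log2 0.26, SE 0.15, edgeR adjusted p = 0.21), and the S1P lyase gene Sgpl1 was at 49.0 ± 2.04 and 48.1 ± 1.97 CPM.

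The 18 egress signalling genes pool carriers of receptor signals to the cytoskeleton with genes that curb the receptors or their signals, such as Cd69 and Rgs1. In this mixed list 12 fell and 1 rose (72.2% called), with a median log2 fold change of -0.28. Cd69 stood at 148, 132 and 139 CPM against 79.0, 94.0 and 88.6 CPM, and fell by 0.68 on the log2 scale (SE 0.07, edgeR adjusted p = 9.0e-07). Its transcript was therefore lower in the libraries in which that of S1pr1 was higher and that of Klf2 lower. Rhoh, a GTPase of haematopoietic cells, fell by 0.82 and Arhgef1, which activates RhoA behind G12 and G13 proteins, by 0.66. Rgs1, which dampens chemoattractant receptor signals, rose from 127 ± 3.97 to 253 ± 25.1 CPM (log2 1.00, SE 0.07).

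Of 16 tested genes for the glycosylation and sorting of PSGL-1, 9 fell and 1 rose (62.5% called), and the median log2 fold change was -0.41. Chst2, a sulfotransferase of selectin ligands, fell from 47.5 ± 4.93 to 25.9 ± 2.41 CPM (log2 -0.88, SE 0.10, edgeR adjusted p = 2.1e-06). Fut4 fell by 0.91 and B4galt1 by 0.49 on the log2 scale. Fut7, the fucosyltransferase that makes PSGL-1 bind selectins, fell by 1.15 and is named after its value was seen. St3gal1, a sialyltransferase that caps core 1 O-glycans, rose by log2 0.83. Selplg transcript was lower in the same libraries.

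Of 15 tested homing receptors, 9 fell and 4 rose (86.7% called), with a median log2 fold change of -0.47. Ccr7, the receptor for entry into lymph nodes, fell by 0.51 on the log2 scale. The integrin genes Itgb7 (log2 -1.83) and Itga4 (-1.14), whose products pair for homing to the gut, also fell. The 4 that rose, named after their values were seen, were the integrin gene Itgb1 (log2 0.33), Cxcr5 (1.38), Gpr15 (1.00) and Gpr132 (0.40). Cxcr5 did not pass on TPM of 5 libraries or without IL-3 supernatant replicate 1 (log2 1.21). Gpr15 did not pass by DESeq2, on TPM of 5 libraries, or without IL-3 supernatant replicate 2 (1.01) or 3 (0.79) or PBS supernatant replicate 1 (1.02) or 2 (0.83).

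**Figure D5:**
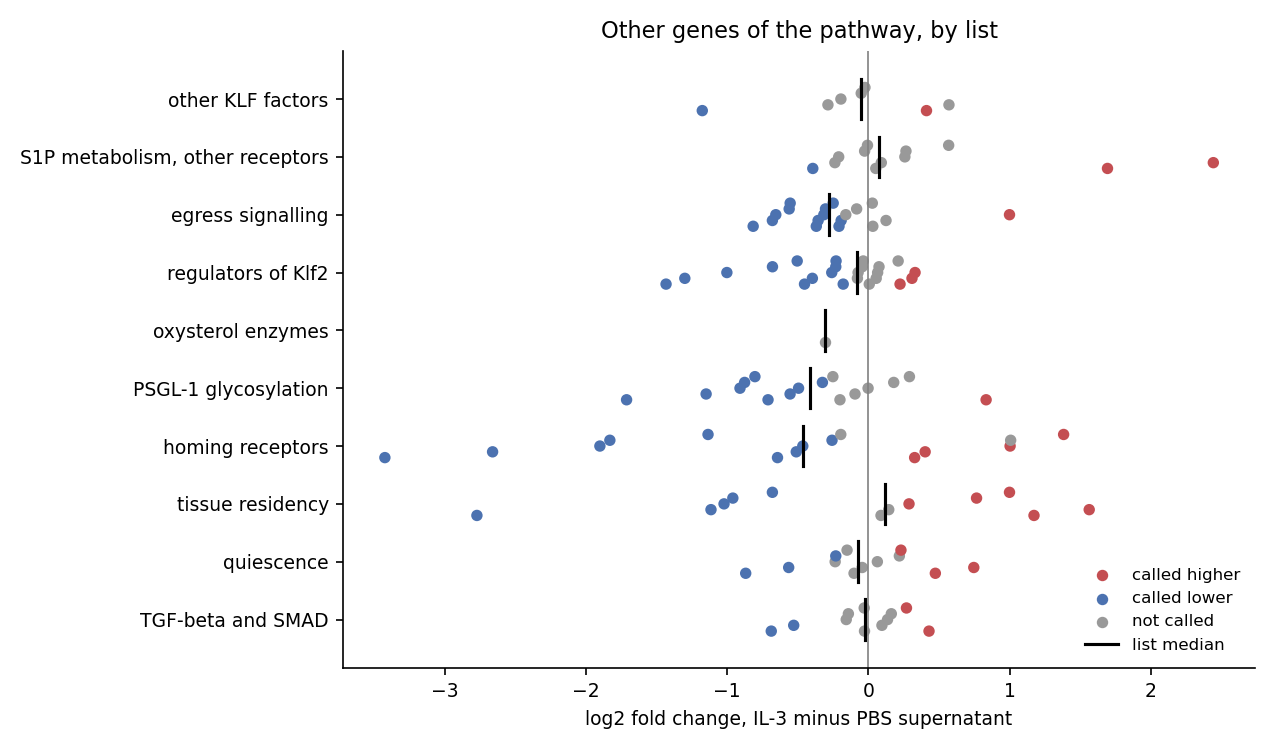
Log2 fold change (IL-3 minus PBS supernatant) of each tested gene in the 10 lists (points, spread vertically for visibility), coloured by call, with the list median (black line). Medians are lowest for homing receptors (-0.47) and PSGL-1 glycosylation (-0.41), the oxysterol list has 1 tested gene, and tissue residency genes lie on both sides of 0.

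Tissue residency genes went both ways, with 5 of 12 tested higher and 5 lower. Rgs2 rose by log2 1.56 (SE 0.11, edgeR adjusted p = 6.4e-09) and Bhlhe40, a factor of resident T cells, by 0.77, while Cd101 fell by 2.77 on the log2 scale. Quiescence genes did as well, with 3 of 12 higher and 3 lower. Btg1, an antiproliferative factor, fell by 0.87 (SE 0.06) and Tcf7 by 0.56, while Sesn3, a target of FOXO factors, rose by log2 0.75 and Btg2 by 0.47. Of 11 TGF-beta and SMAD genes, listed because TGF-beta induces Klf10, 2 rose and 2 fell. Tgfbr2, a TGF-beta receptor, fell by 0.53 on the log2 scale (SE 0.07, edgeR adjusted p = 2.6e-05) and Smad3 by 0.69, while the SMAD repressors Skil (log2 0.43) and Ski (0.27) rose. Of 6 enzymes that make or break down the oxysterol ligands of GPR183 only Hsd3b7 had counts enough to be tested, at 4.89 ± 2.63 and 3.94 ± 1.11 CPM (log2 -0.31, SE 0.36, edgeR adjusted p = 0.58), and above 0 without PBS supernatant replicate 2 (log2 0.24). Ch25h and Cyp7b1, which make the ligand, had no count in any library.

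Tested genes next to each member in order of gene start, 1 on each side, numbered 18. Of these 2 were called higher, 3 lower and 13 were not called, with a median log2 fold change of -0.05. Ubac2, which overlaps Gpr183, was not among them. Eps15l1, an endocytosis gene 19.3 kb from Klf2, was at 45.0 ± 3.82 and 37.2 ± 3.89 CPM (SD, n = 3 each; log2 -0.28, SE 0.09, edgeR adjusted p = 0.032). Eps15l1 did not pass by DESeq2, on TPM, with the replicate block (edgeR adjusted p = 0.052), or without IL-3 supernatant replicate 2 (log2 -0.18) or PBS supernatant replicate 2 (-0.22) or 3 (-0.26). Ncln, 1.36 kb from S1pr4, was at log2 -0.07 (SE 0.06) and Coro1c, 9.79 kb from Selplg, at log2 -0.15 (SE 0.05), and neither passed (edgeR adjusted p = 0.44 and 0.052). Coro1c passed without replicate 1 of either group (log2 -0.19 without that of IL-3 and -0.17 without that of PBS supernatant).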

How the data were processed

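Poly(A) RNA of 6 libraries was prepared with an Illumina TruSeq kit, per the labels' protocols. Per the submitters' processing notes, RSEM 1.2.12, Bowtie2 2.2.0, edgeR 3.20.9 and build GRCm38 were used, with roles, annotation and strand setting not given in the sources used here. The authors deposited expected counts per gene, which divide ambiguous reads and were rounded here, and TPM, scaled by the authors for length and library, per gene for 5 libraries and per isoform for PBS supernatant replicate 2, summed here per gene (99.7% of its TPM matched). Symbols matched 46005 of 46517 identifiers. Coordinates are from GENCODE on GRCm38.

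edgeR 4.0.16 (R 4.3.3) was run with filterByExpr, TMM, robust dispersions and a quasi-likelihood test of group, with Benjamini-Hochberg adjustment over 12407 genes and a threshold of 0.05. Log2 fold changes set IL-3 against PBS supernatant, and each SE derives from the F statistic. CPM use TMM-scaled library sizes. Scripts were tested on simulated data. Same-group libraries differed by more than sampling noise. Members and lists were chosen with earlier results of these data known. Named genes are the members, up to 4 called genes per list with the smallest p, the 5 most like Klf2, and a fixed panel with Ccr7, Foxo1, Cd69 and S1pr2. Some genes that fall under this rule are not reported here. Klf4, Sgpl1, Hsd3b7, Ch25h, Cyp7b1 and the neighbours Eps15l1, Ncln and Coro1c were named after their values were seen. Alternatives used DESeq2 1.42.0, limma 3.58.1, other scalings, filters and thresholds, a replicate block and each library left out.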

Additional observations from a re-analysis of the deposited data

How the results depend on the processing

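Under 19 alternatives Klf2 stayed between log2 -4.38 and -2.83 (the latter on log2(TPM + 1), which understates low genes), S1pr4 between -1.44 and -1.22, Selplg between -0.96 and -0.84 and S1pr1 between 0.42 and 0.80. The number of members called lower was 3 with the replicate block and in all others but 1: on TPM of 5 libraries without a filter it was 2, where S1pr4 lost its call. The number called higher, S1pr1 alone, was 0 by DESeq2, on TPM of 5 libraries (3 fits) and of 6 (added after seeing the data), at adjusted p below 0.01 and against a fold of 1.2, and 0 to 1 with libraries left out. Klf6, not called, changed sign on TPM of 5 libraries (-0.0011 with a pseudocount of 1, with or without a filter, and -0.0011 with 0.1) and without PBS supernatant replicate 3 (-0.044, with 0.13 as the highest with a library left out). Foxo1, not called, did so without IL-3 supernatant replicate 1 (-0.036) or PBS supernatant replicate 1 (-0.0017), with 0.057 as the highest. Hsd3b7, not called, was above 0 on TPM (0.11 with a pseudocount of 0.1, 0.088 with 1 with or without a filter, 0.36 on 6 libraries) and ranged from -0.54 to 0.24 with libraries left out. Sgpl1, not called, ranged from -0.062 to 0.0061. Over all genes, 1156 were higher on TPM of 5 libraries with a pseudocount of 1 and 1158 with 0.1; without a filter 669 were higher and 820 lower. At adjusted p below 0.01, 1217 were higher, and against a fold of 1.2, 928 were higher and 937 lower. Of the listed pathway genes, 9 were higher and 25 lower on TPM without a filter, and 11 higher against a fold of 1.2. With libraries left out, 1456 to 1916 genes were higher and 1601 to 2102 lower. The replicate block gave 1634 higher and 1776 lower. Correlations of same-numbered deviations were -0.15, 0.05 and 0.25, and 2 of 6 libraries were closest to their own number. With 3 libraries per group, these values cannot decide whether the replicate numbers pair the libraries. Depth limits Klf2 with IL-3 supernatant (9 to 23 counts), S1pr1 and S1pr5. The causes were not tested.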
